A study of Mus musculus with 12 samples.

Results

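Immediate early genes of the Nr4a, Egr and AP-1 families were followed through RNA-seq counts of sorted mouse CD4 T cells. The 10 members were the nuclear receptor genes Nr4a1, Nr4a2 and Nr4a3, the zinc finger genes Egr1, Egr2 and Egr3, and the AP-1 genes Fos, Fosb, Jun and Junb, taken by gene symbol from the 21839 genes counted. All 10 passed the filter on low counts, as did 11766 genes in all. The study compared regulatory T cells (Tregs), CD4 T cells that restrain immune responses, between mice whose dendritic cells lack Atg5, a gene needed for autophagy, and littermates. All mice were C57BL/6 and carried loxP sites in both copies of Atg5 (Atg5 flox/flox). Mice called TG here also carried 1 copy of Cre driven by the CD11c promoter (CD11c Cre +/-), which removes Atg5 from CD11c-expressing cells, chiefly dendritic cells, and mice called WT carried none (CD11c Cre -/-). The cells came from spleen together with inguinal, cervical and brachial lymph nodes, and the sort used 1 more surface marker beside high or low CD25, the interleukin-2 receptor chain encoded by Il2ra. Genotype and gate gave 4 groups of 3 libraries, called WT High and WT Low, and TG High and TG Low. Age is not given in the sources used here.

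Immediate early genes are transcribed within minutes of a stimulus, without new protein synthesis, because the factors that switch them on are already present and are activated by kinases. In T cells the antigen receptor, through MAP kinases and calcium, switches on all of these families, and growth factors and cell stress switch on the AP-1 genes in many cell types. Fos and Jun proteins pair to form AP-1, which binds DNA together with NFAT at many activation genes. EGR2 and EGR3 restrain T cell activation, and NR4A proteins take part in the development and stability of Tregs. Their RNAs are mostly short-lived, so a level reflects recent transcription.

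The promoters of the AP-1 genes and of Nr4a1 and Egr2 are shown. The AP-1 genes differed together from library to library, while Nr4a1 and Egr2 did not follow them. Each line holds 300 bases from RefSeq on GRCm38.p6, from 250 before to 50 after an annotated start, in the direction of transcription. Capitals mark matches on either strand to TGACG, the core of the cyclic AMP response element bound by CREB and ATF proteins, to TATAAA, the core promoter element, to the CArG box, the core of the serum response element, and to the MEF2 site.
Fos, chr12:85473640-85473939, + strand: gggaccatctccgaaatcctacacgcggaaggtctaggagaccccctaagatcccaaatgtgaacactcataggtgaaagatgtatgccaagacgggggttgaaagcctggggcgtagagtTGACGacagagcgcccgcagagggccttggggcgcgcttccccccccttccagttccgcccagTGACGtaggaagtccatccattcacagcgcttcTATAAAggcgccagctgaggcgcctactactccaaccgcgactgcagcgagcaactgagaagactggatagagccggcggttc
Fosb, chr7:19309996-19310295, - strand: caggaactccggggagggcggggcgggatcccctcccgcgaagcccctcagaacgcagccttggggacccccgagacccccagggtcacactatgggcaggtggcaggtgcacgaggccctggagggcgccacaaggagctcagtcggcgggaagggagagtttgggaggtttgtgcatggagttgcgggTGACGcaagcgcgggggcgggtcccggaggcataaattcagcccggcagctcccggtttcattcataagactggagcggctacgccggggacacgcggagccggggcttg
Jun, chr4:95052173-95052472, - strand: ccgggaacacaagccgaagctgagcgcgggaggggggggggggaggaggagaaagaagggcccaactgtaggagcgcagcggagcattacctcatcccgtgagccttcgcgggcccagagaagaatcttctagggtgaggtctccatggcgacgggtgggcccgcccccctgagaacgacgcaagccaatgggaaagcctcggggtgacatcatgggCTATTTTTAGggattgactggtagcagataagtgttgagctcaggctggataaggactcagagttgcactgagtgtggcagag
Junb, chr8:84978699-84978998, - strand: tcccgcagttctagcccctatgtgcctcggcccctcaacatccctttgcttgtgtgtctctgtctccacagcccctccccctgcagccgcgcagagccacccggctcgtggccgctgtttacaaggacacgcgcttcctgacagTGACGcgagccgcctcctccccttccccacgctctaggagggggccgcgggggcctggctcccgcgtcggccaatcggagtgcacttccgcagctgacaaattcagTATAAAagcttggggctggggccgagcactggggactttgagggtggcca
Nr4a1, chr15:101266596-101266895, + strand: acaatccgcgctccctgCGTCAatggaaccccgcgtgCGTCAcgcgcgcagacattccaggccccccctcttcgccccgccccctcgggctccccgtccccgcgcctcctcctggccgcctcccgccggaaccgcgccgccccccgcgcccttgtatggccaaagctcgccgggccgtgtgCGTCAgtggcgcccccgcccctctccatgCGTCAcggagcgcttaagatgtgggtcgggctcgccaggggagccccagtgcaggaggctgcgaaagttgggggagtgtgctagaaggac
Egr2, chr10:67537619-67537918, + strand: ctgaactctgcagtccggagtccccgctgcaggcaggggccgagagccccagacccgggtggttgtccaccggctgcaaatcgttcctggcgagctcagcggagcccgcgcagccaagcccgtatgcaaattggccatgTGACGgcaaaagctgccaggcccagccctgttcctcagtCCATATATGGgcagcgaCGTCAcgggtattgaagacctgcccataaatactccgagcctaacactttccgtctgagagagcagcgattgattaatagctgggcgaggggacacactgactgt

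Of the 10 members, 8 had a window that was searched. Egr3 had none in the RefSeq table, and Egr1, on chromosome 18, was left out, so nothing here covers these genes. TGACG was found in 7 of the 8 windows, Jun being the exception, and in 20.8% of all 32851 windows searched. Nr4a1, Nr4a2 and Nr4a3 held 4 matches each, Fos and Egr2 held 2, and Fosb and Junb held 1. The MEF2 site was found in Jun, 33 bases before the start, and in Nr4a2, against 3.19% of all windows. TATAAA was found in Fos, also 33 bases before the start, in Junb at the start and in Nr4a2, where it overlapped the MEF2 match, against 13.6%. Among the 8, the CArG box was found in Egr2 alone, 72 bases before the start, against 1.63%. The full cyclic AMP response element (TGACGTCA), the EGR site (GCGTGGGCG), the AP-1 site (TGANTCA) and the NR4A monomer site (AAAGGTCA), each searched on both strands, were in none of the 8 windows and in 1.79%, 0.612%, 7.81% and 1.51% of all windows. These are matches of letters in a short window, and elements farther away were not searched. The 8 windows were also richer in G and C (58.7% to 81.7%) than the median of all windows (52.7%). The shares of all windows were not matched for this, which bears on TGACG, as it holds a CG.

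**Figure D1:**
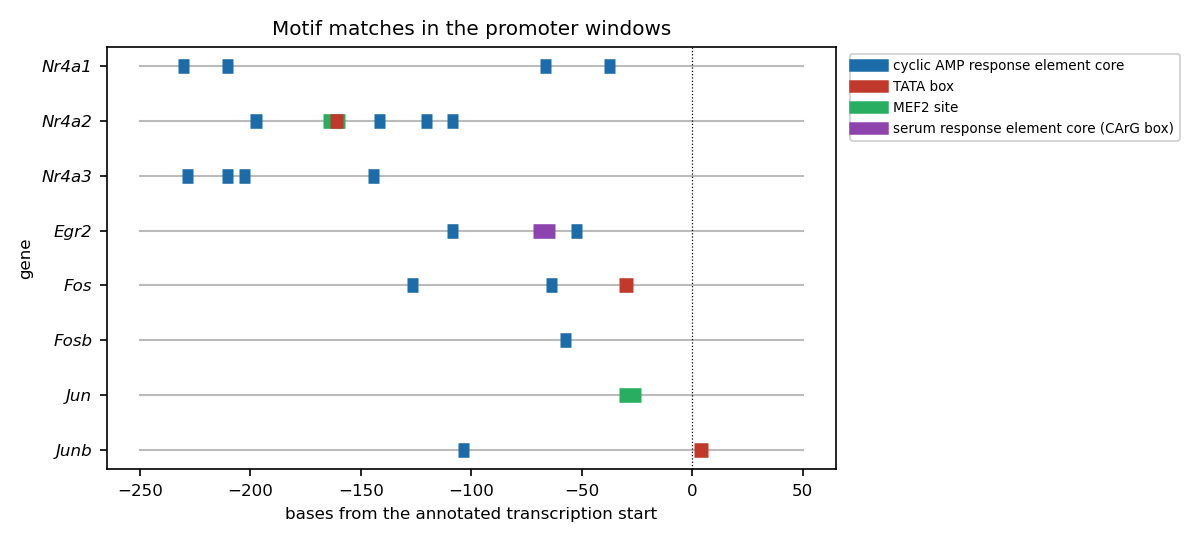
Motif matches in the promoter windows of 8 members, by distance in bases from the annotated start (0 on the horizontal axis). TGACG (blue) occurred in 7 of 8 windows, the MEF2 site (green) in Jun and Nr4a2, TATAAA (red) in Fos, Junb and Nr4a2, and the CArG box (purple) in Egr2.

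Total counts per library ran from 18161830 to 23942479 apart from TG High replicate 2, with 6767828. The T cell genes Cd3e, Cd4 and Trac stood at 921 to 1145, 513 to 715 and 438 to 675 CPM (read counts scaled to library size by TMM, which evens out composition between libraries). Foxp3, the Treg lineage factor, stood at 983 to 1662 CPM in all 12 libraries, including the CD25 Low ones. Il2ra was higher in CD25 High than in CD25 Low by 1.00 on the log2 scale over both genotypes (SE 0.11, adjusted p = 0.00251). Atg5 itself, whose deletion is directed to other cells, stood at 32 to 41.5 CPM. The labels number the libraries 1 to 3 in every group, and libraries of the same number resembled each other; whether a number marks an animal, a pool or a day is not stated, and all p-values rest on the spread among these 12 libraries, which may be partly technical. In bulk RNA, fewer cells of a type and less RNA per cell cannot be told apart.

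Levels between genes were compared as CPM per kilobase of exon. By the median of 12 libraries the order was Junb (149), Nr4a1 (46.7), Jun (44.1), Egr1 (34.9), Fos (16.2), Egr2 (12.4), Nr4a3 (1.36), Egr3 (0.982), Nr4a2 (0.742) and Fosb (0.541). The first 6 genes lay above the last 4 in every library, the nearest values being 4.44 for Fos at its lowest and 3.58 for Fosb at its highest. Junb at its lowest (105) lay above Nr4a1 at its highest (66.8). Nr4a1, Jun and Egr1 were not separated, since their ranges (26.9 to 66.8, 26.4 to 307 and 25.4 to 39.5) overlapped, and the 4 low genes overlapped one another as well. Junb overlaps Prdx2, and Jun its antisense gene Junos, each on the other strand, and the library chemistry does not mark strand, so reads in the shared stretches cannot be assigned to either with certainty.

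The families differed in how much they varied. Fos ran from 10.5 to 809.6 CPM across the 12 libraries, a range of 77.5-fold, Fosb covered 20.1-fold, Jun 11.7-fold and Junb 4.66-fold. Nr4a2 covered 7.54-fold, Egr3 4.43-fold, Nr4a3 3.72-fold, Nr4a1 2.48-fold, Egr2 1.79-fold and Egr1 1.55-fold. The biological coefficient of variation within groups, the relative spread beyond counting noise, was 1.3 for Fos and 0.905 for Jun, at the 98.4 and 96.5 percentiles of all tested genes, against a median of 0.156. That of Egr1 was 0.161, at the 51.8 percentile.

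**Figure D2:**
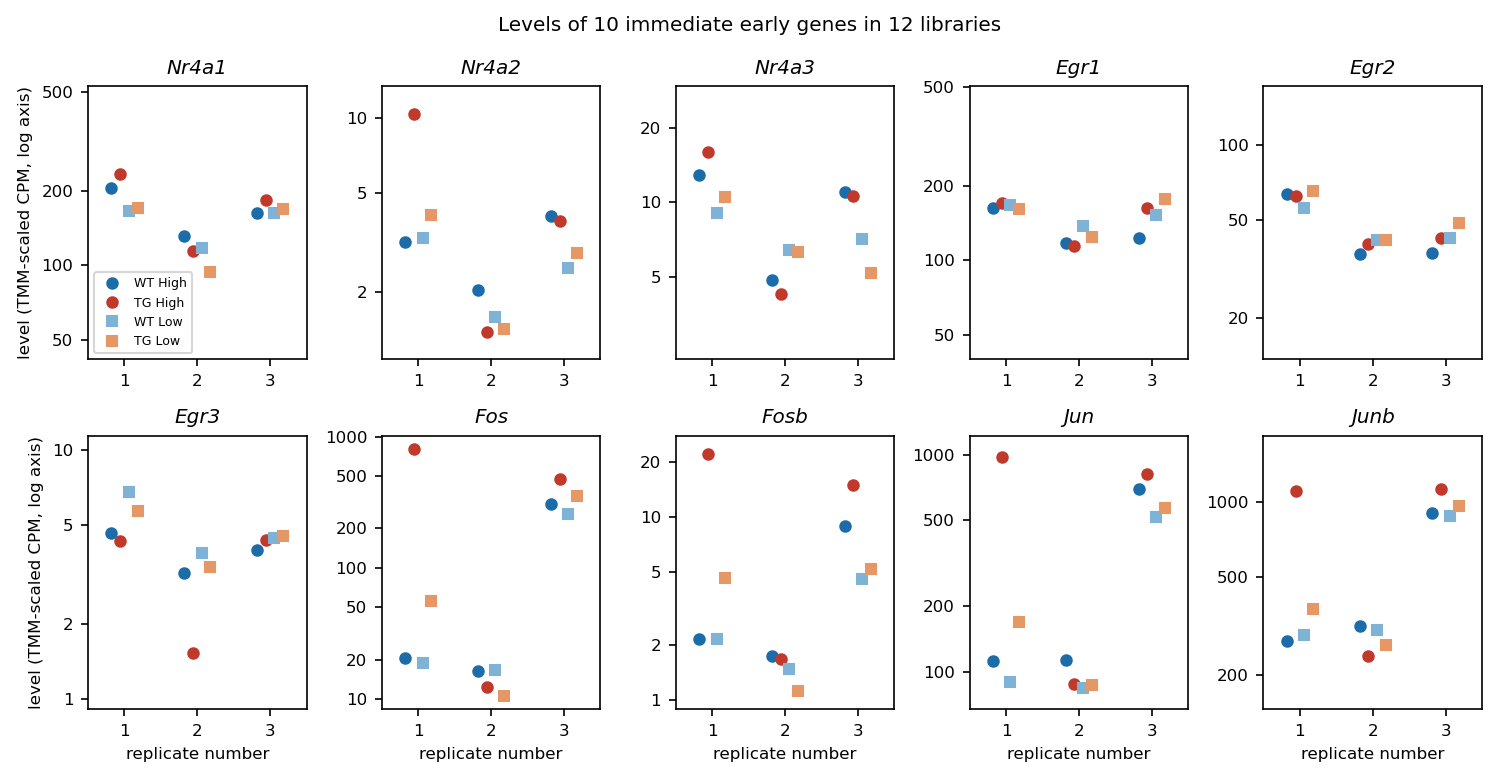
Level of each of the 10 genes in the 12 libraries (TMM-scaled CPM on a log axis, each panel with its own range) by replicate number, with 1 point per library and group shown by colour and shape. Fos, Jun and Junb were high in the 4 libraries numbered 3 and in TG High replicate 1, while the Nr4a and Egr genes were lowest or near lowest in the libraries numbered 2.

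Fos and Jun encode the partners of the classical AP-1 dimer. Fos (ENSMUSG00000021250, GRCm38 chr12:85473890-85477273, + strand) stood at 20.7, 16.3 and 306 CPM in WT High replicates 1, 2 and 3, at 809.6, 12.4 and 474 in TG High, at 18.9, 16.7 and 255 in WT Low and at 55.5, 10.5 and 354 in TG Low. Within every group the library numbered 3 was high and the one numbered 2 low, and TG High replicate 1 was the highest of all, 14.6 times the next library numbered 1. Jun (ENSMUSG00000052684, chr4:95049034-95052222, - strand) stood at 112, 113 and 693 CPM in WT High, at 979.8, 87.7 and 816 in TG High, at 89.3, 84.1 and 516 in WT Low and at 169, 86.7 and 571 in TG Low. The same 5 libraries were high. All 4 groups overlapped for both genes, because each group spanned low and high libraries.

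Junb encodes an AP-1 subunit that dimerizes with FOS proteins or BATF and is needed in effector Tregs. Junb (ENSMUSG00000052837, chr8:84974484-84978718, - strand) stood at 275, 315 and 899 CPM in WT High, at 1104, 240.5 and 1122 in TG High, at 290.5, 304 and 873 in WT Low and at 370.3, 266 and 961 in TG Low. Fosb, which encodes a FOS relative (ENSMUSG00000003545, chr7:19302696-19310051, - strand), stood far lower, at 2.14, 1.73 and 9.02 CPM in WT High, at 22.4, 1.68 and 15.1 in TG High, at 2.16, 1.47 and 4.6 in WT Low and at 4.66, 1.11 and 5.19 in TG Low. For Junb the lowest of the 5 high libraries was 2.36 times the highest of the other 7, for Jun 3.06 times and for Fos 4.6 times. For Fosb the sets met, at 4.6 CPM in WT Low replicate 3 and 4.66 in TG Low replicate 1.

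The Nr4a genes encode orphan nuclear receptors. Nr4a1, used as a reporter gene of antigen receptor signalling (ENSMUSG00000023034, chr15:101254269-101274795, + strand), stood at 205, 131 and 162 CPM in WT High, at 234, 114 and 183 in TG High, at 165, 118 and 163 in WT Low and at 170.2, 94.4 and 169 in TG Low. All 4 libraries numbered 2 lay below the other 8. Nr4a2 (ENSMUSG00000026826, chr2:57106830-57124003, - strand) stood at 3.16, 2.02 and 4.01 CPM in WT High, at 10.4, 1.38 and 3.85 in TG High, at 3.29, 1.58 and 2.49 in WT Low and at 4.05, 1.41 and 2.86 in TG Low. Here too the libraries numbered 2 were the 4 lowest, and TG High replicate 1 stood 2.57 times above the next library of its number. Nr4a3 (ENSMUSG00000028341, chr4:48045153-48086447, + strand) stood at 12.9, 4.89 and 11 CPM in WT High, at 16, 4.29 and 10.6 in TG High, at 9.09, 6.44 and 7.14 in WT Low and at 10.5, 6.31 and 5.19 in TG Low. Its highest values were in the CD25 High libraries numbered 1, and its libraries numbered 2 and 3 overlapped. The lowest values of Nr4a2 rest on 9 reads and those of Egr3 on 10 reads, both in TG High replicate 2.

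The Egr genes encode zinc finger transcription factors. Egr1 (ENSMUSG00000038418, chr18:34859823-34864984, + strand) was the steadiest member, at 162, 118 and 123 CPM in WT High, at 171, 114 and 163 in TG High, at 168, 138 and 152 in WT Low and at 161, 124 and 177 in TG Low. Egr2 (ENSMUSG00000037868, chr10:67535475-67542188, + strand) stood at 63.5, 36.3 and 36.8 CPM in WT High, at 62.1, 39.9 and 42.3 in TG High, at 55.8, 41.2 and 42 in WT Low and at 65, 41.4 and 48.4 in TG Low. All 4 libraries numbered 1 lay above the other 8 for Egr2, as they did for 8.99% of tested genes. Egr3 (ENSMUSG00000033730, chr14:70077203-70082614, + strand) stood at 4.66, 3.2 and 3.97 CPM in WT High, at 4.3, 1.53 and 4.36 in TG High, at 6.78, 3.87 and 4.45 in WT Low and at 5.68, 3.38 and 4.5 in TG Low. Its libraries numbered 2 were the 4 lowest, as were those of Nr4a1, Nr4a2, Fos and Fosb and of 3% of tested genes.

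The first question of the design was whether these genes differ between CD25 High and CD25 Low cells. None of the 10 members passed the test in WT, in TG or over both genotypes (edgeR quasi-likelihood, Benjamini-Hochberg adjusted p under 0.05 over 11766 genes), where 0.051%, 0.0085% and 0.518% of tested genes were called, and none had an unadjusted p under 0.05. With the replicate number as a block, 1.63%, 1.68% and 5.88% of genes were called and again 0 members, with an unadjusted p under 0.05 for 0, 3 and 4 of them; DESeq2 called 0 as well. Over both genotypes the median log2 difference of the 10 members was 0.38, or 0.36 with the block, against 0.00 for all tested genes. Much of this rested on TG High replicate 1. In the blocked fit without it, Fos moved from 1.27 to 0.09, Jun from 0.90 to 0.24 and Junb from 0.36 to -0.02. Nr4a2 moved from 0.61 to 0.25 and Fosb from 1.20 to 0.71, while Nr4a1, Nr4a3 and the Egr genes moved less.

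The 4 members nearest to a call over both genotypes, with the block, were Nr4a1, Fosb, Nr4a2 and Egr3. Nr4a1 differed by 0.22 on the log2 scale (SE 0.07, adjusted p = 0.108), CD25 High being the higher in 5 of 6 pairs of the same genotype and number. Fosb differed by 1.20 (SE 0.40, adjusted p = 0.146; 5 of 6 pairs) and Nr4a2 by 0.61 (SE 0.23, adjusted p = 0.17; 4 of 6 pairs). Egr3 differed by -0.35 (SE 0.16, adjusted p = 0.267), CD25 High being the lower in all 6 pairs. Jun was higher in CD25 High in 6 of 6 pairs, by 0.90 (SE 0.51, adjusted p = 0.431). The narrowest interval of the 10 was that of Egr2, from -0.21 to 0.05 on the log2 scale, and the interval for Fos ran from -0.37 to 2.90.

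**Figure D3:**
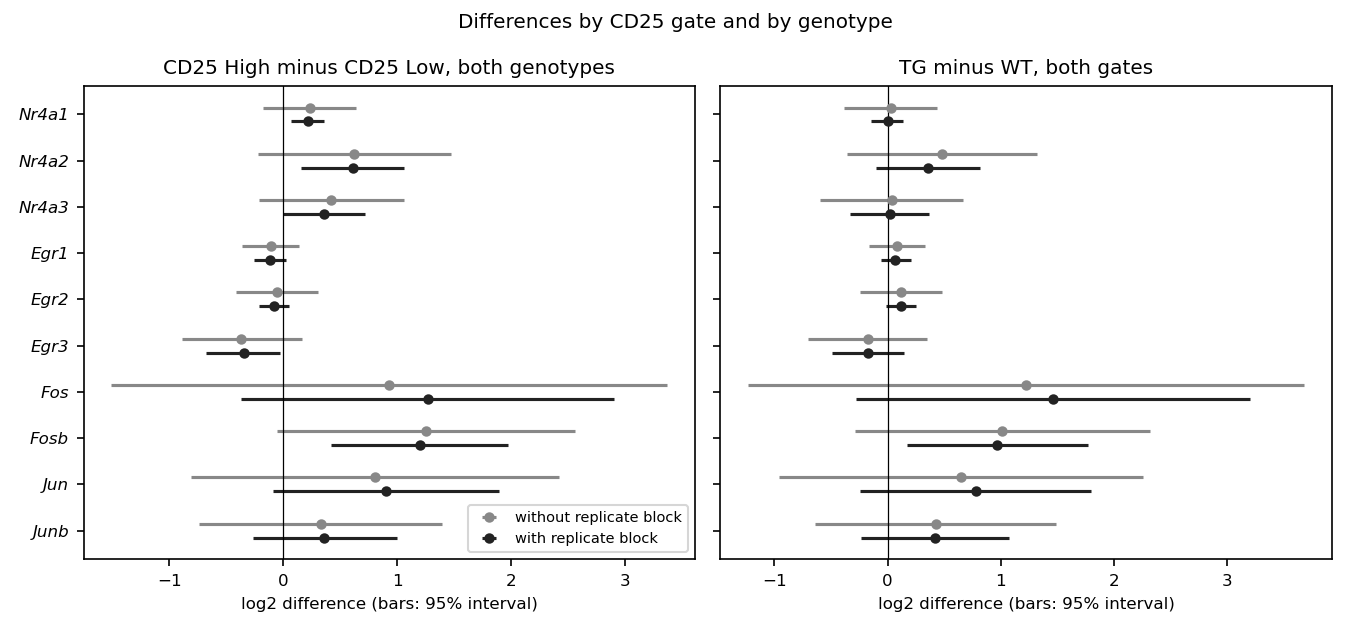
Log2 difference of each of the 10 genes between CD25 High and CD25 Low over both genotypes (left) and between TG and WT over both gates (right), without (grey) and with (black) the replicate number as a block. Bars are ± 1.96 SE, marked as 95% intervals, and are narrower than true 95% intervals. With the block the intervals of Egr1 and Egr2 spanned under 0.3 log2 units and those of Fos over 3, and no gene passed the adjusted threshold.

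The second question was whether the genes differ in T cells of mice whose dendritic cells lack Atg5. None of the 10 passed in CD25 High, in CD25 Low or over both gates, and none for the difference of the genotype effects between the gates; 0% of tested genes were called in each of these 4 comparisons. With the block 0.051% of genes were called over both gates and 0% in the other 3, again with 0 members; an unadjusted p under 0.05 was reached by 0 members without the block and, with it, by Fosb in CD25 High and over both gates, and DESeq2 called 0. Egr1 differed between TG and WT over both gates by 0.07 (interval -0.06 to 0.21) and Egr2 by 0.12 (-0.01 to 0.25) with the block, and Nr4a1 by -0.15 to 0.14. For Fos the interval was -0.28 to 3.20, so a difference of several fold was not detectable with this spread. Among the genes called in that blocked comparison were the chaperone genes Hsp90ab1 (0.46, adjusted p = 0.0131) and Hsph1 (0.51, adjusted p = 0.0484) and the B cell gene Cd22 (1.04, adjusted p = 0.022), all higher in TG.

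For the AP-1 genes the genotype estimate rested on TG High replicate 1. With the block, TG minus WT in CD25 High was 2.58 for Fos (SE 1.29), 1.59 for Fosb (SE 0.55), 1.27 for Jun (SE 0.75) and 0.77 for Junb (SE 0.47) on the log2 scale. In the pair numbered 1 Fos differed by 5.29, and in those numbered 2 and 3 by -0.39 and 0.63. Jun differed by 3.13, -0.36 and 0.24 in the 3 pairs, and Junb by 2.01, -0.39 and 0.32. In the blocked fit without that library the estimates were 0.47 for Fos (SE 0.53), 0.81 for Fosb (SE 0.39), 0.08 for Jun (SE 0.25) and 0.05 for Junb (SE 0.17), and that of Nr4a2 moved from 0.59 to -0.04. Without the block, the estimate for Fos moved from 1.92 to 1.10, but there TG High is left with numbers 2 and 3 against 1 to 3 in WT High. None of these passed the test with or without that library. The same library moved the blocked difference of CD25 High minus Low in TG from 2.39 to 0.04 for Fos and from 0.83 to 0.16 for Nr4a2.

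The replicate number, unlike gate and genotype, went with the level of every member. With the 4 groups held constant, 10 of 10 members differed by number (edgeR F test over both number terms, adjusted p under 0.05), against 34.3% of tested genes. The adjusted p was 4.44e-05 for Nr4a1, 3.01e-05 for Egr2, 0.00397 for Egr1, 0.00459 for Nr4a2, 0.00731 for Nr4a3, 0.0215 for Egr3, 0.0264 for Fosb, 0.0375 for Junb, 0.0386 for Jun and 0.0445 for Fos. The first 5 kept their call when any single library was left out. That of Fos was lost in 10 of 12 such fits, that of Junb in 10, Jun in 9, Fosb in 4 and Egr3 in 3, with adjusted p up to 0.129, and the only library whose removal lowered the p of all 4 AP-1 genes below 0.002 was TG High replicate 1.

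The Nr4a and Egr genes were lower in the libraries numbered 2 than in those numbered 1. All 6 were called lower, against 16.8% of tested genes (contrasts between numbers were added after the data were seen). The log2 difference was -0.42 for Egr1 (SE 0.09), -0.63 for Egr2 (SE 0.08), -0.75 for Nr4a1 (SE 0.09), -0.79 for Egr3 (SE 0.20), -1.05 for Nr4a3 (SE 0.23) and -1.48 for Nr4a2 (SE 0.30). Without TG High replicate 1 they ran from -0.40 to -1.13 and all 6 stayed called. Of the AP-1 genes, Fosb was also called lower, by -1.75 (SE 0.53, adjusted p = 0.041). Between numbers 3 and 1 only Egr2 of the 6 was called, by -0.55 (SE 0.08, adjusted p = 0.00012), against 13.4% of genes called lower there.

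The AP-1 genes were higher in the libraries numbered 3 than in those numbered 2. All 4 were called higher, against 5.99% of tested genes, as were Nr4a1 (0.57, SE 0.09) and Egr1 (0.31, SE 0.09). Fos was higher by 4.47 on the log2 scale, or 22.2-fold (adjusted p = 0.0489), Jun by 2.71 (SE 0.64, adjusted p = 0.044), Fosb by 2.24 (SE 0.51, adjusted p = 0.0277) and Junb by 1.72 (SE 0.41, adjusted p = 0.0438). Without TG High replicate 1 these were 4.52 for Fos (SE 0.44, adjusted p = 0.00387), 2.78 for Jun (SE 0.20, adjusted p = 0.000401), 2.31 for Fosb (SE 0.32, adjusted p = 0.000496) and 1.77 for Junb (SE 0.13, adjusted p = 2.68e-05). Numbers 3 and 1 did not differ by call in the full set, where Fos was at 2.06 (SE 1.09, adjusted p = 0.245), but all 4 AP-1 genes were called without that library, Fos at 3.42 (SE 0.47, adjusted p = 0.00608).

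Genes of other cell types and of the cell cycle also differed by number, where 34.3% of all tested genes did. All 12 B cell genes were called lower in numbers 2 and 3 than in number 1, their summed level being 509.6 to 979 CPM in number 1, 92 to 269 in number 2 and 66.3 to 85.9 in number 3. All 16 cell cycle genes were called lower in the same way, with sums of 597 to 972, 315 to 326 and 257 to 286 CPM. Of 12 genes of CD8 T or NK cells 11 differed by number, with sums of 118 to 163, 78.6 to 94.7 and 58.8 to 71.7 CPM. Of 8 tested myeloid or dendritic genes 5 did. The sums of all 16 genes of that list, untested ones included, were 19.8 to 144, 10 to 18.2 and 9.59 to 14.5 CPM. Cd79a, Ms4a1 and Pax5, which mark B cells, were counted in every library, as were Lyz2 and Itgam of the myeloid markers and Zbtb46 of the dendritic ones (0.462 to 2.02 CPM), while Csf1r was at 0 in 3 libraries, C1qb in 4, Flt3 in 2 and Itgax in 6. WT High and WT Low replicate 1, with B cell sums of 509.6 and 680.0 CPM, were among the libraries low in Fos and Jun. TG High replicate 1, with a B cell sum of 900.5 CPM, was the highest of all 12 in both genes. The part of these cells in the patterns of the Nr4a, Egr and AP-1 genes was not tested.

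**Figure D4:**
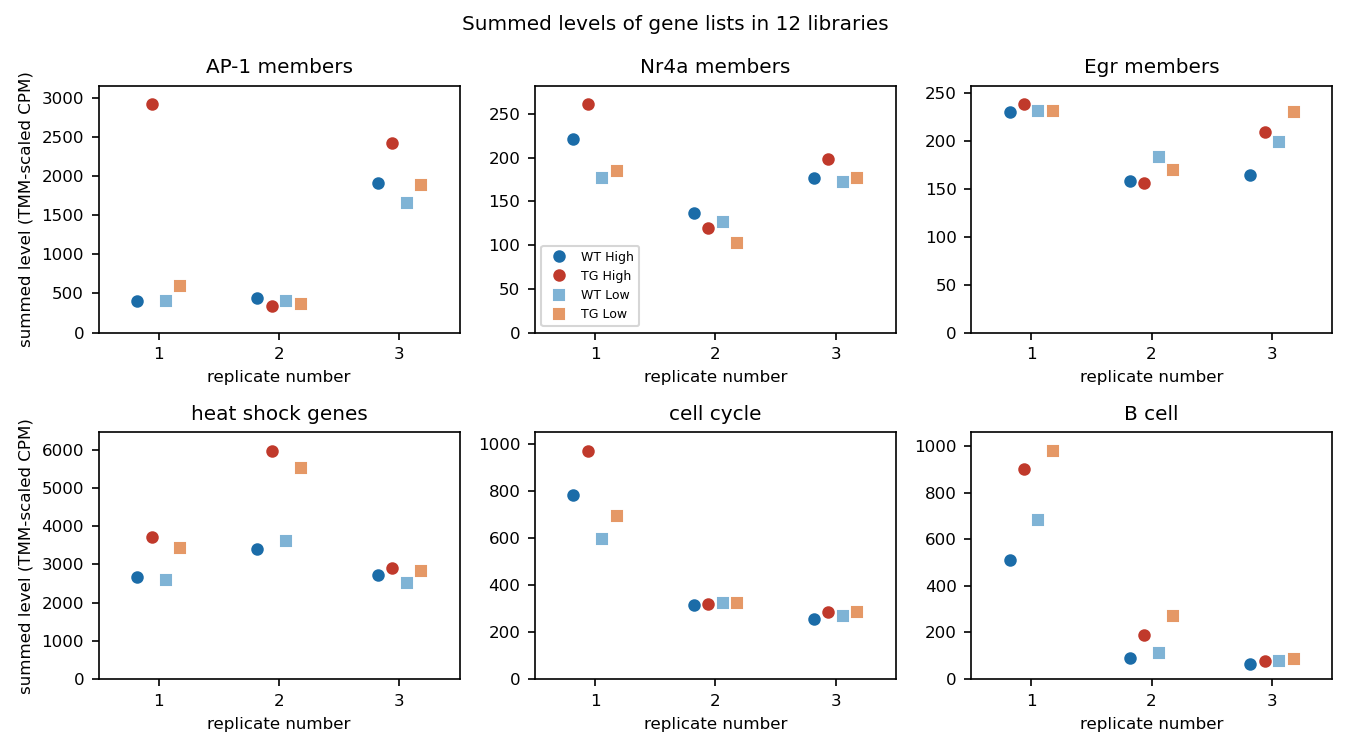
Summed level (TMM-scaled CPM, axis from 0) of the AP-1, Nr4a and Egr members and of heat shock, cell cycle and B cell genes in each of 12 libraries, by replicate number. The AP-1 sum was 1649 to 2427 CPM in number 3 and 2916 in TG High replicate 1, whereas the B cell and cell cycle sums were highest in all 4 libraries numbered 1.

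Heat shock genes, which encode chaperones induced by protein stress, differed by number in another order. Of 12 genes, 6 differed, against 34.3% of all tested genes. Of these 5 were higher in number 2 than in number 1 and 5 lower in number 3 than in number 2, against 11.5% and 6.43% of tested genes. Their sum was highest in TG High replicate 2 (5967 CPM) and TG Low replicate 2 (5513 CPM), where Fos was at its lowest, 12.4 and 10.5 CPM. In TG High replicate 1 it was 3703 CPM, and in the other libraries numbered 1 it was 2677 (WT High), 2581 (WT Low) and 3424 CPM (TG Low, where Fos was at 55.5). Hspa1a stood at 65.8 CPM in TG High replicate 1 and at 3.05 to 22 in the other 11. Its part in the AP-1 values was not tested.

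Other genes of the same response were placed beside the members. Of 23 other immediate early genes tested, 9 were called higher and 0 lower in number 3 than in number 2, against 5.99% and 6.43% of all tested genes. Ppp1r15a, which encodes a phosphatase subunit that restores translation after stress, was higher by 3.02 on the log2 scale (SE 0.56, adjusted p = 0.0212), Rgs2, a regulator of G protein signalling, by 1.39 (SE 0.23, adjusted p = 0.00895), Rgs1 by 0.52 and Myc by 0.44. Of 9 MAP kinase feedback inhibitors 5 were called higher and 0 lower in the same contrast, among them the phosphatase genes Dusp1, by 2.27 (SE 0.48, adjusted p = 0.0311), and Dusp2, by 0.94 (SE 0.18, adjusted p = 0.0153). Of the 3 genes of the mRNA decay list, Zfp36l1 and Zfp36l2 were called higher by 0.29 and 0.33, while Zfp36 itself, whose protein destabilizes AU-rich RNAs, was at 1.05 (SE 0.29, adjusted p = 0.0678).

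Other AP-1 and ATF subunits were not uniform. Of 10 tested, 6 differed by number, against 34.3% of all tested genes. Atf4, a factor of the integrated stress response, was higher in number 3 than in number 2 by 0.38 (adjusted p = 0.0324) and Maff by 0.94 (adjusted p = 0.0313), and Batf, the AP-1 partner that works with IRF4, was lower by 0.57, its log2 difference being -0.57 (adjusted p = 0.00183). Jund, the constitutive JUN relative, was at 0.26 (adjusted p = 0.171) and Fosl2 at -0.87 (adjusted p = 0.0537). Both Egr corepressor genes, Nab1 and Nab2, missed the threshold by number (adjusted p = 0.148 and 0.153).

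Genes known upstream of the families include Srf, the Elk, Creb, Mef2 and Nfat genes and the MAP kinases. Of 22 tested, 7 differed by number, a share near the 34.3% of all tested genes, and between numbers 3 and 2 1 was higher and 3 lower, against 5.99% and 6.43%. Srf was at -0.05 (adjusted p = 0.782) and Mapk3, which encodes ERK1, at 0.26 (adjusted p = 0.0666). Between numbers 2 and 1, 4 of the 22 were higher and 3 lower, against 11.5% and 16.8% of tested genes. The 4 higher in number 2 were Creb1 (0.30), Mapk14 (0.29), Nfatc2 (0.24) and Nfatc3 (0.20). Nfatc1, the NFAT gene induced on activation, was lower in number 2 (-0.34, adjusted p = 0.000979), as were the Nr4a and Egr members. It was lower in number 3 than in number 1 as well (-0.47, adjusted p = 5.01e-05), as was only Egr2 of those members. Mef2c, which B cells also express, was at -2.94 in number 2 compared with number 1 (adjusted p = 0.00188).

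Of 17 tested T cell genes known as targets of Egr2, Egr3 or Nr4a, 13 differed by number, against 34.3% of all tested genes. In number 2 compared with number 1, 8 were lower and 3 higher, against 16.8% and 11.5%, and 9 lower and 1 higher in number 3 than in number 1, where 13.4% and 8.2% of tested genes were. Tnfrsf9, a costimulatory receptor, was lower in number 2 by a log2 difference of -1.45 (adjusted p = 4.75e-07), and the checkpoint receptor genes Pdcd1, Lag3 and Tigit were at -1.47, -1.92 and -2.16 (adjusted p = 2e-06, 3.63e-05 and 1.58e-06). Dgka, a diacylglycerol kinase that dampens receptor signalling, was higher by 0.32 (adjusted p = 0.00143). Foxp3 did not differ by number (0.08 between numbers 2 and 1, adjusted p = 0.416).

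**Figure D5:**
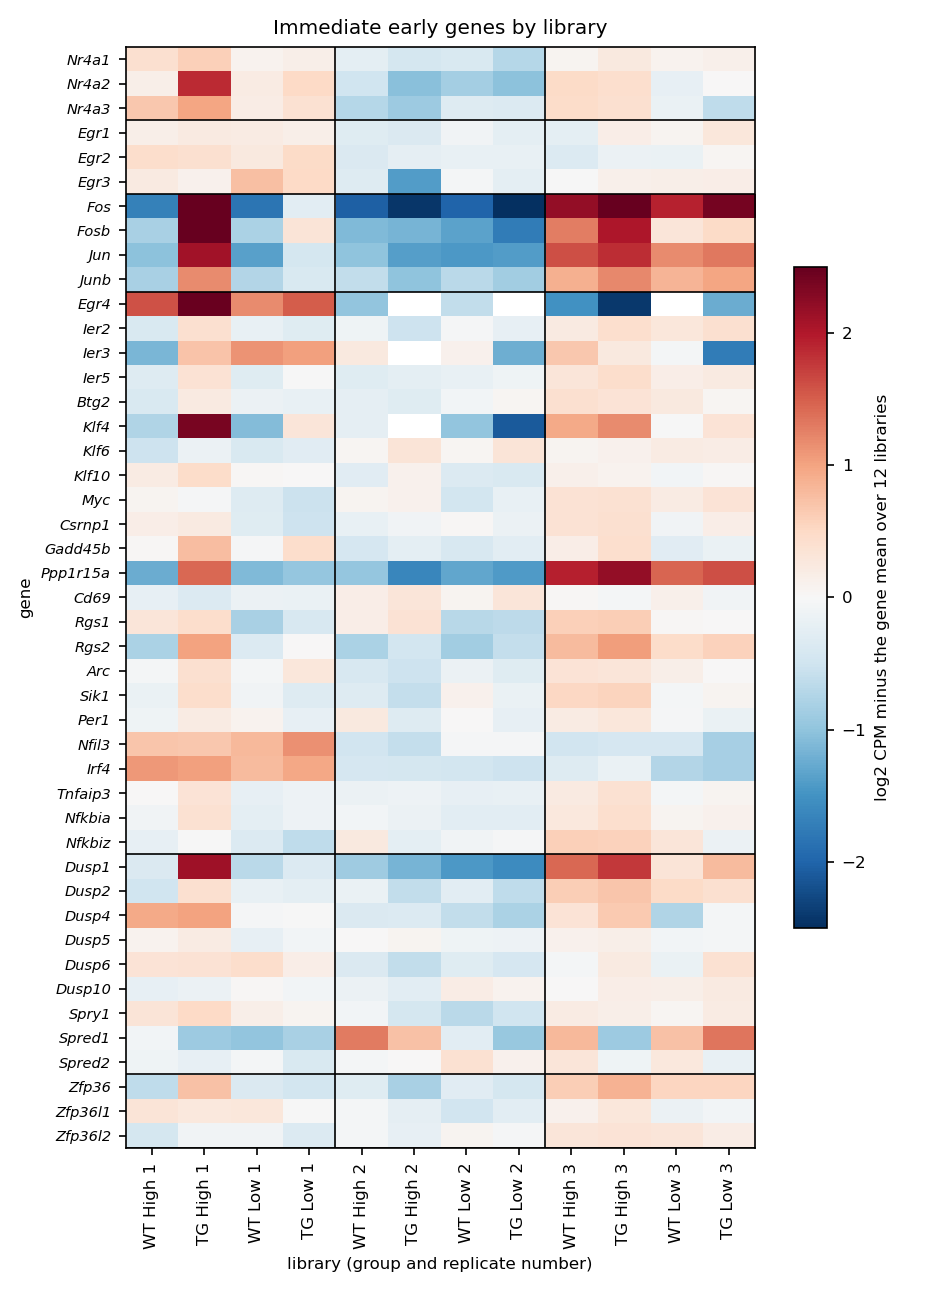
Log2 CPM of the 10 members and of other immediate early genes, MAP kinase feedback inhibitors and mRNA decay factors in 12 libraries, each gene relative to its own mean (colour scale cut at 2.5 log2 units, white cells inside a row are counts of 0), with libraries ordered by replicate number. Fos, Jun, Junb, Ppp1r15a and Dusp1 shared their high libraries, the 4 numbered 3 and TG High replicate 1, and Irf4 and Nfil3 were high in all 4 libraries numbered 1.

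The set of 5 high libraries of Fos was used to find genes with the same order. Of 11766 tested genes, 101 (0.858%) had the same 5 highest libraries. Fos is among them by definition, and Jun and Junb were as well. For 5 of these whose mean reached 10 CPM, the lowest of the 5 libraries was at least 2 times the highest of the other 7: Ppp1r15a (5.3 times), Fos, Jun, Junb and Irs2 (2.25 times), which encodes an insulin receptor substrate. From the lists, 6 of 23 other immediate early genes had the same 5 (Ppp1r15a, Rgs2, Ier2, Ier5, Nfkbia and Btg2), as did Dusp1, Dusp2, Zfp36 and Atf4, and 0 of the upstream, target, heat shock, cell cycle, B cell, myeloid and CD8 or NK genes. Ppp1r15a stood at 60.3, 73 and 552 CPM in WT High and at 387, 46.5 and 662 in TG High. In WT Low it stood at 66.6, 57.9 and 395, and in TG Low at 73.1, 53.4 and 439. That it shares its 5 high libraries with Fos follows from how it was picked here.

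Likeness between genes was described by Pearson r of log2 CPM over the 12 libraries after the mean of each replicate number was subtracted; the libraries share depth and source, and r is given without a test. Fos was most like Junb (r = 0.988), Jun (0.982) and Ppp1r15a (0.954). Fosb was most like Dusp1 (0.956), and Nr4a2 was most like Ppp1r15a (0.975), Dusp1 (0.960) and Jun (0.954). The other Nr4a and Egr genes had no member among their 3 most like genes: Nr4a1 was led by Stat6 (0.923), Nr4a3 by Ube4a (0.936), Egr1 by Plin3 (0.893), Egr2 by Aars (0.975) and Egr3 by Inafm1 (0.971). The mean of the 10 members was most like Cep170b (0.929), Zfp36 (0.924), Rhob (0.924) and Ppp1r15a (0.921), all over 12 libraries. TG High replicate 1 lies far from the others in the AP-1 genes and weighs on these values.

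Between the CD25 gates some genes of the wider response passed once the replicate number was held as a block, while no member did. The contrast is one of calls, and the sizes were not compared by a test. The median blocked difference over both genotypes was 0.24 for the 23 other immediate early genes and 0.36 for the 10 members. The members were not uniform, with Egr1, Egr2 and Egr3 at -0.12, -0.08 and -0.35. Their median also leaned on TG High replicate 1. Without it Fos, Jun and Junb were at 0.09, 0.24 and -0.02, and Nr4a2 and Fosb at 0.25 and 0.71. With all libraries the last pair had larger estimates. Fosb (1.20, SE 0.40) and Nr4a2 (0.61, SE 0.23) went uncalled with wider spread. Over both genotypes 5 of 23 other immediate early genes were called, all higher in CD25 High, against 5.88% of tested genes. Rgs1 was higher by 0.83 on the log2 scale (SE 0.07), Myc by 0.32 (SE 0.07, adjusted p = 0.0147), Nfkbia, the NF-kB inhibitor, by 0.25 (SE 0.06, adjusted p = 0.0268) and Tnfaip3 by 0.23 (SE 0.06, adjusted p = 0.0352). Dusp4 (0.75, SE 0.12, adjusted p = 0.00235) and Dusp5 (0.20, SE 0.05, adjusted p = 0.0288) were 2 of 9 MAP kinase feedback inhibitors called. Of 17 target genes 5 were called, Ikzf4, Foxp3 and Tnfrsf9 higher by 0.49, 0.47 and 0.48, and Tigit and Rnf128 lower, at -0.90 and -0.87. Without the block only Foxp3 and Ikzf4 of these passed, and 0 of the other immediate early genes did. The NK cell genes Klrk1, Ncr1, Klrb1c and Klrd1 were lower in CD25 High in the same blocked fit, at -3.30, -3.09, -3.20 and -2.42, and their part in the differences was not tested.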

How the data were processed

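The authors deposited raw counts, as whole reads for each Ensembl gene. The submitters' processing notes name CASAVA 1.8.2, STAR 2.4, featureCounts 1.4.6 and GRCm38; settings are not given there. Per the labels' protocols, the SMARTer Ultra Low kit amplified cDNA of 10 ng RNA, which does not mark strand. Of 21839 genes, 21628 were matched to symbols in GENCODE vM21.

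The test was edgeR 4.0.16 in R 4.3.3, with TMM, filterByExpr (minimum count 10), robust glmQLFit and glmQLFTest over 12 libraries with 4 groups, Benjamini-Hochberg over 11766 genes, threshold 0.05. Log2 CPM used a prior count of 2. Intervals are ± 1.96 SE, the normal multiplier for 95%. The F test allows for the few libraries and this multiplier does not, so the intervals are narrower than true 95% ones. For Fos, TG minus WT in CD25 High with the block, the interval was 0.05 to 5.11. The quasi-likelihood F test gave an unadjusted p of 0.0912 there. The test was checked on simulated data with the same spread for every gene and no outlying library. That check does not cover genes as variable as the AP-1 members. Deviations from the group mean had correlations of 0.34 to 0.83 in the 18 pairs sharing a number and of -0.688 to 0.197 in the 36 others, so the numbers were taken as pairs, from these data. Alternatives were the replicate block, DESeq2 1.42.0, RLE scaling, no filter, and left-out libraries. Without molecular identifiers, counting error alone would understate the uncertainty. All 10 members are named; of other lists, called genes with the smallest p, and further genes chosen after their values were seen. Members, lists and motifs were chosen with earlier results of these data known.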

Additional observations from a re-analysis of the deposited data

Results flagged for a closer look

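Within each replicate number the 4 libraries were screened for a value far from the other 3, over 30 sets (10 genes by 3 numbers), where chance picks about 1 in 20. Among the libraries numbered 1, TG High replicate 1 stood apart in 5 genes: Fos at 809.6 CPM against 18.9 to 55.5, Jun at 979.8 against 89.3 to 169, Junb at 1104 against 275 to 370.3, Fosb at 22.4 against 2.14 to 4.66 and Nr4a2 at 10.4 against 3.16 to 4.05. Among those numbered 2, WT High replicate 2 stood apart in Jun, at 113 CPM against 84.1 to 87.7. On the log2 scale only the last gap exceeded Dixon's critical value for 4 samples, at 0.856 of the range, and the other 5 were at 0.669 to 0.793.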

How the results depend on the processing

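With the replicate block, as without it, 0 of 10 members were called in every gate and genotype comparison, and the block changed no member's call. Over 1260 recomputed differences (70 differences of a member by setting) none passed, the lowest adjusted p being 0.0515, and 41 of the 70 uncalled differences changed sign in at least 1 setting. In the blocked fit with 1 library left out, 0 to 1 members were called for CD25 High minus Low in TG and over both genotypes, the 1 being Fosb without WT High replicate 1. The 10 members called by replicate number became 5 to 10 with 1 library left out, the lowest without TG Low replicate 1 or 2. The count was 6 without the 4 libraries numbered 1 (not Nr4a3, Egr1, Egr2 or Egr3), chosen after the data were seen, 8 without the filter on low counts (not Fos or Fosb), and 10 with DESeq2 or RLE scaling. Fewer libraries enter the left-out fits; the cause of the other changes was not tested. Depth limits Nr4a2, Egr3 and Fosb, with 9 to 11 reads in TG High replicate 2.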
